A study of Rattus norvegicus with 9 samples.

Results

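Histones are the proteins around which nuclear DNA is wound, and their genes were examined here in the rat left ventricle. They were taken from a table of gene levels as every row whose symbol begins with Hist1, Hist2, Hist3, Hist4, H1f, H2af or H3f and that reached at least 0.5 FPKM (fragments scaled to gene length and library size) in at least 1 of 9 libraries. Of 19294 genes with values, 32 were taken. The prefixes occur in 48 rows, of which 4 had no values and 12 stayed below the minimum. Just inside the minimum lay Hist1h1b with a highest value of 0.52 FPKM and Hist1h1a with 0.56, and just outside lay Hist1h2bd with 0.49 and Hist3h3 with 0.42. The 9 libraries came from 3 groups of 3: untreated Wistar Kyoto rats (WKY), whose blood pressure is normal, untreated spontaneously hypertensive rats (SHR), which were bred from the Wistar Kyoto stock for raised pressure, and oxymatrine-treated rats of the latter strain (SHR_OMT). Oxymatrine is an alkaloid of Sophora roots. All groups were labelled as left ventricle, while sex, age, dose and treatment time have no entry in the sources used here. The labels do not say that the replicates came from separate animals, so every p-value reflects only the spread among these samples, which may be technical.

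The histone genes fall into 2 classes by the way they are regulated. Replication-dependent genes, in rat those named Hist1 to Hist4, lie in clusters and are switched on as a cell copies its DNA; their messenger RNA ends in a stem-loop that the protein encoded by Slbp binds, instead of a poly(A) tail. Variant genes, here those with the prefixes H1f, H2af and H3f, in part carry introns, mostly give polyadenylated messages and are active throughout the cell cycle. In long-lived, rarely dividing cells such as heart muscle cells, variant proteins can thus replace some of the replication-dependent ones. Some clustered genes also give polyadenylated messages in differentiated cells. The labels name the library kit but do not say whether poly(A) tails were selected, so a low level of the first class and a poor capture of its messages cannot be told apart.

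Of the 32 genes, 22 were replication dependent and 10 variant. A mean of at least 1 FPKM over the 9 libraries, the condition for testing, was reached by 10 of the first class and all 10 of the second. Only Hist1h2bk among these 20 had a group mean below 1, so it reached the condition only through its level in WKY; its values are given without a test, and counts of calls and medians leave it out. The libraries were similar in breadth, with FPKM sums of 587526 to 606633 and 12231 to 12514 genes at 1 FPKM or more. The defining genes of heart muscle were abundant in every library, with 40035 to 46279 FPKM summed over 8 markers, and none of the 8 was at 0. The atrial markers, 5 in number, summed to 1264 to 2630 FPKM in the WKY samples, 975 to 4461 in the SHR samples and 976 to 1926 in SHR_OMT, the greater part of it Nppa.

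The upstream regions below are shown because they belong to the 3 H2B genes on which the results turn and to H2afz and H2afv. These 2 encode the variant H2A.Z and were lower together in SHR. Each is the 250 bases before the annotated start, 5′ to 3′ on the gene's strand, from RefSeq on the build GRCr8, which is not the build named in the submitters' notes, and from the Brown Norway reference strain, which is neither strain studied here. Capitals mark the octamer ATGCAAAT, a site of Oct-type factors known from H2B promoters, which reads ATTTGCAT where it lies on the other strand. In the H2B genes they also mark the CCAAT box and the TATA box TATAAA. In the H2A.Z genes they mark the CCAAT box and the GC box GGGCGG, each on either strand. Hist1h2bk lies on the minus strand at chr17:47181941-47182190, Hist1h2bh on the minus strand at chr17:41869342-41869591 and Hist2h2be on the plus strand at chr2:186469202-186469451. H2afz lies on the plus strand at chr2:229028845-229029094 and H2afv on the minus strand at chr14:85526069-85526318.
Hist1h2bk: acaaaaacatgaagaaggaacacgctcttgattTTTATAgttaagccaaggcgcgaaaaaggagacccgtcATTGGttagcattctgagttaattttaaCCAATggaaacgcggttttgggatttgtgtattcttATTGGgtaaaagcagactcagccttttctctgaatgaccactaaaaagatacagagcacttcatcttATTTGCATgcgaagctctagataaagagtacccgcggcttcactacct
Hist1h2bh: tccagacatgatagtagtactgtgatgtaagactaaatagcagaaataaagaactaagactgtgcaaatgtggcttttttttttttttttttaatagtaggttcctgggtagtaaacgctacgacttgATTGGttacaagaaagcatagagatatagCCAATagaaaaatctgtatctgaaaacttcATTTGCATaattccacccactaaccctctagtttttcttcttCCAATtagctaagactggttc
Hist2h2be: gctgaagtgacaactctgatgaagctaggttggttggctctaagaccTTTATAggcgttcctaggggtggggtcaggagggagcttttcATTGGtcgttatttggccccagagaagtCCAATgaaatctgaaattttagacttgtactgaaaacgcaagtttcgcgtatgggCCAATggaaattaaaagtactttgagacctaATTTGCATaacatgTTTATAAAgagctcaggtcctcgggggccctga
H2afz: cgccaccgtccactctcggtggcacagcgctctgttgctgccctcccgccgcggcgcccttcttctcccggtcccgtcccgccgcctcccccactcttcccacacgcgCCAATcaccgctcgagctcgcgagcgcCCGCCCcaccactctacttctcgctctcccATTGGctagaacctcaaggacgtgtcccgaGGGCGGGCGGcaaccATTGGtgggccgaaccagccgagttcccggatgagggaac
H2afv: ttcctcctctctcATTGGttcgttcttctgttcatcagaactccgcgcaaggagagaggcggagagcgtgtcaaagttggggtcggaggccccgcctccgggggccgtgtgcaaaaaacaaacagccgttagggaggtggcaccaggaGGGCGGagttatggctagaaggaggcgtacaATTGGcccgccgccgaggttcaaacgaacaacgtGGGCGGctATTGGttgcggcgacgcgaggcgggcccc

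All 3 H2B regions held 1 octamer, at 48 to 41 bases before the start in Hist1h2bk, 63 to 56 in Hist1h2bh and 47 to 40 in Hist2h2be, and 3 CCAAT boxes each. The gene listed at 0 in SHR, the gene that rose there and the gene that fell there thus shared these elements in the reference sequence. They did not share TATAAA, which was absent in Hist1h2bh and lay at 217 to 212 bases on the opposite strand in Hist1h2bk. Of the 5 H2B members 3 held the octamer, while Hist1h2bo and Hist3h2ba did not. The part of these elements in the changes was not tested. In Hist2h2be a TATA box on each strand overlaps the other at 33 to 26 bases before the start, and in H2afz GC boxes overlap at 55 to 46. Entries were found for 21 of 22 replication-dependent and for 9 of 10 variant genes. Searched on both strands of the upstream 250 bases, the octamer occurred in 523 of 33469 promoters (1.56%), in 8 of the 21 and in 1 of the 9, H3f3b. CCAAT occurred in 34.0% of all promoters, in 19 of the 21 and in 5 of the 9. TATAAA occurred in 12.9% of all, in 12 and in 2, and the GC box in 30.5% of all, in 6 and in 5. Hist1h2bk and Hist2h2be stand head to head with an H2A gene: 248 of the 250 bases before Hist1h2bk are also upstream of LOC680322 (named H2ac12 in RefSeq), and 225 of those before Hist2h2be are also upstream of Hist2h2ac. LOC680322 was listed at 0 in every library except SHR_OMT replicate 2 (0.52 FPKM), and Hist2h2ac was listed at 0 in all 9.

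Expression of the replication-dependent class was carried by few genes. Hist1h1c, which encodes the linker histone H1.2, had 166, 171 and 145 FPKM in the WKY samples, 165, 159 and 169 in the SHR samples and 166, 158 and 182 in SHR_OMT. The groups overlapped throughout, and Hist1h1c was not called in any comparison; its 95% interval for SHR minus WKY on the log2(FPKM + 1) scale was −0.12 to 0.20. Hist1h1c alone held 52.7% to 57.7% of the summed FPKM of its class, and together with the H2B gene Hist1h2bh 77.3% to 84.3%. Hist1h4b, an H4 gene, followed with 15.9 to 19.7 FPKM over the 9 libraries, then Hist2h2aa3, an H2A gene, with 4.94 to 22.7, and Hist3h2a, another H2A gene, with 8.43 to 10.9. Lowest of the tested genes of this class was Hist1h2aa, a testis H2A gene, with 0.54 to 2.11 FPKM.

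The H3 messages that were measured came almost wholly from the variant side. A low level of replication-dependent H3 messages and their poor capture cannot be told apart here. Hist2h3c2 was the 1 replication-dependent H3 gene taken, with at most 1.61 FPKM in any library. H3f3b, which encodes the replacement histone H3.3, had 156 to 211 FPKM. A further row, LOC100361558, is named H3f3a in RefSeq by its Gene ID, encodes the same kind of histone and had 356 to 462 FPKM in the untreated groups and 353 to 381 in SHR_OMT; its symbol keeps it out of the 32. The other variants ranked after H3f3b in order of mean FPKM as H2afz (59.9 to 81.3), H1f0 (54.1 to 67.6), H2afv (32.4 to 48.3), H2afy (24.0 to 28.5), H2afx (15.99 to 21.4) and H2afj (8.47 to 19.1). H2afz and H2afv encode the H2A.Z proteins of gene starts, H1f0 the linker histone of differentiated cells, H2afy a macroH2A of silent chromatin and H2afx the H2A.X that is phosphorylated at DNA breaks. Ranges of neighbours in this order overlapped for H2afz with H1f0 and for H2afx with H2afj and were otherwise apart. The 3 lowest, H3f3c, H1fx and H2afy2, reached at most 4.09 FPKM. H3f3c is annotated as a pseudogene in RefSeq and was listed at 0 in WKY replicate 1 and at 4.09 and 3.72 in the other WKY samples.

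**Figure D1:**
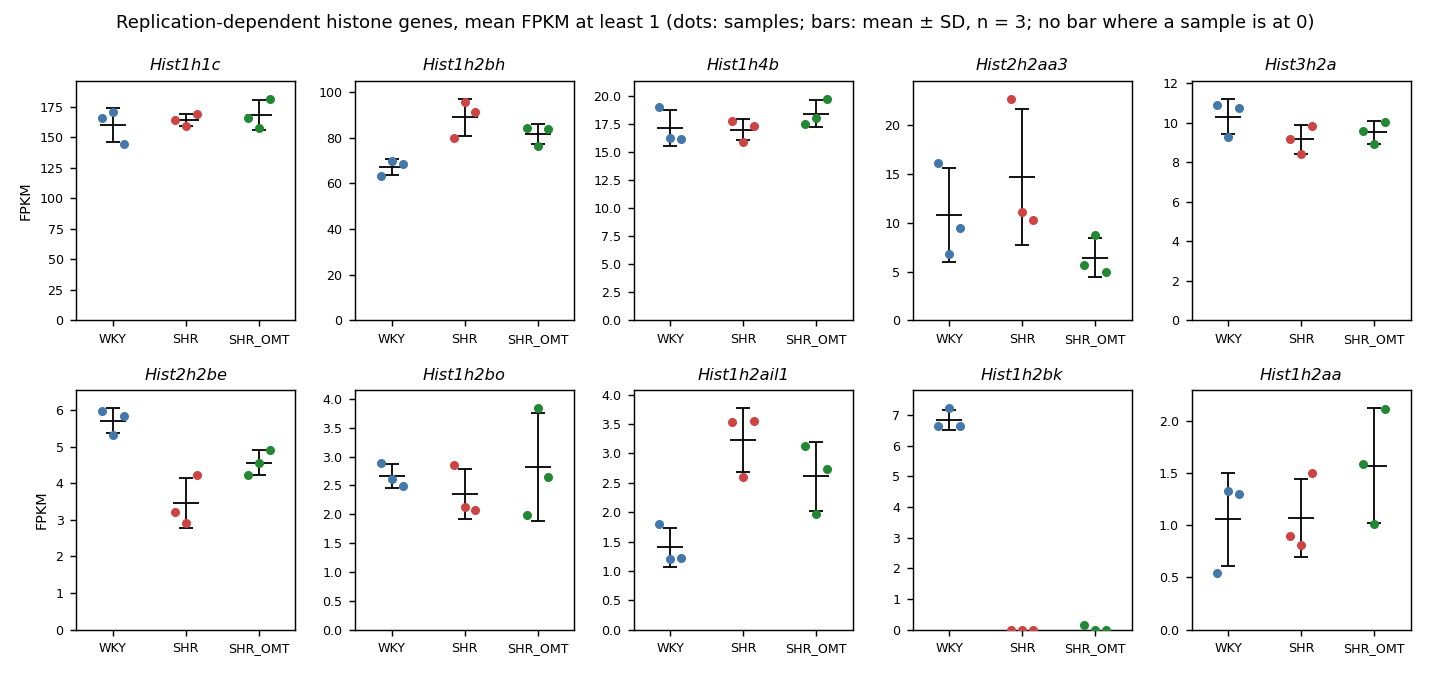
FPKM of the 10 replication-dependent histone genes with a mean of at least 1 FPKM, by group; dots are samples, bars the mean and SD over 3 samples, each vertical axis starts at 0 and has its own scale. Hist1h2bh and Hist1h2ail1 sit higher in all SHR samples than in all WKY samples, Hist2h2be lower, and Hist1h2bk is at 0 in SHR.

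The first comparison, SHR against WKY, sets the hypertensive against the normotensive strain. Replication-dependent genes went in both directions, with 2 of 9 higher and 1 lower. The variant genes that passed in the main fit were all lower, 4 of 10, which depended on the scaling. In limma over all 12451 tested genes 7 of these 19 were called at an adjusted p of 0.05, where 33.9% of all genes were called (10.8% higher and 23.1% lower), so the members' share lay near that of all genes. The median log2 change was 0.02 for the 9 replication-dependent and −0.14 for the 10 variant genes, beside −0.08 for all genes. With median-of-ratios scaling the median of all genes was 0.003, and 1 variant gene was called higher and 2 lower. Changes are differences in log2(FPKM + 1), which understate those of low genes, with limma's standard error (SE).

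Hist1h2bh had 63.2, 69.9 and 68.5 FPKM in the WKY samples and 79.8, 95.5 and 91.4 in the SHR samples. Every SHR library exceeded every WKY library. The gene rose by 0.40 (SE 0.074, adjusted p = 0.00346), and passed in all 16 alternative settings. The authors' deposited table gave it a log2 ratio of 0.508 and a q-value of 4.95e-06.

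Hist2h2be, another H2B gene, had 5.97, 5.33 and 5.84 FPKM in the WKY samples and 3.21, 2.92 and 4.22 in the SHR samples. The groups did not overlap, and the change was −0.60 (SE 0.11, adjusted p = 0.00302). In the authors' deposited table its log2 ratio was −0.626 with a q-value of 0.0114. Another H2B row of chromosome 2 outside the members, LOC100912338 (H2bc18 in RefSeq), had 1.47, 1.94 and 2.21 FPKM in the WKY samples. In the SHR samples it had 0.63, 0.33 and 1.01, a mean of 0.66, so its values are given without a test. Whether the 2 rows trade reads was not tested. Hist1h2ail1, named as an H2A gene, had 1.79, 1.21 and 1.22 FPKM in the WKY samples and 3.53, 2.60 and 3.55 in the SHR samples. Here too the groups stood apart, with a rise of 0.81 (SE 0.16, adjusted p = 0.00394), while the authors' deposited table gave a q-value of 0.162.

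Hist1h2bk, also an H2B gene, was detected in one group almost alone. It had 6.66, 7.23 and 6.64 FPKM in WKY and was listed at 0 in all SHR libraries and at 0.16, 0 and 0 in SHR_OMT, so no fold is given. A listed 0 may be a failed estimate, and near-identical copies can trade reads when these are counted: LOC100365043, named H2bc12l1 in RefSeq after the same gene, had 0.20, 0.23 and 0 FPKM in the WKY samples and 0.72, 1.65 and 2.44 in the SHR samples. The sum of both rows was 6.86, 7.46 and 6.64 FPKM in the WKY samples and 0.72, 1.65 and 2.44 in the SHR samples, so the groups stayed apart in the sum. Over all 5 H2B members the sum was 79.1, 85.4 and 83.7 FPKM in the WKY samples and 86.0, 101 and 98.1 in the SHR samples, and with 6 more H2B rows listed under locus names 81.0, 88.7 and 86.6 against 88.2, 104 and 102, where the groups overlapped. Of the genes that were not called, the H2A gene Hist3h2a had 9.29 to 10.9 FPKM among the WKY and 8.43 to 9.85 among the SHR libraries (adjusted p = 0.168), and the H4 gene Hist1h4b 16.2 to 19.0 and 15.9 to 17.7 FPKM (adjusted p = 0.929). The remaining H2B gene tested, Hist1h2bo, had 2.49 to 2.89 FPKM in the WKY samples and 2.07 to 2.86 in the SHR samples (adjusted p = 0.565).

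An H2A pair showed levels that shifted between copies from library to library. Hist2h2aa3 had 16.1, 6.76 and 9.47 FPKM in the WKY samples, 22.7, 11.1 and 10.2 in the SHR samples and 5.64, 8.70 and 4.94 in SHR_OMT, a wide spread within each group. LOC690131, named Hist2h2aa2 in RefSeq, ran the other way with 4.01, 13.7 and 10.6 in WKY, 3.04, 12.8 and 10.7 in SHR and 13.6, 11.3 and 15.95 in SHR_OMT. The 2 rows together gave 20.1, 20.5 and 20.1 FPKM in the WKY samples, 25.8, 23.9 and 21.0 in the SHR samples and 19.2, 19.96 and 20.9 in SHR_OMT. Hist2h2aa3 took between 23.6% and 88.2% of the sum in single libraries, so the share of the pair varied far more than its total. For SHR against WKY neither row was called (adjusted p = 0.388 for Hist2h2aa3 and 0.858 for LOC690131), and the pair's total was higher in every SHR library than in every WKY library.

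**Figure D2:**
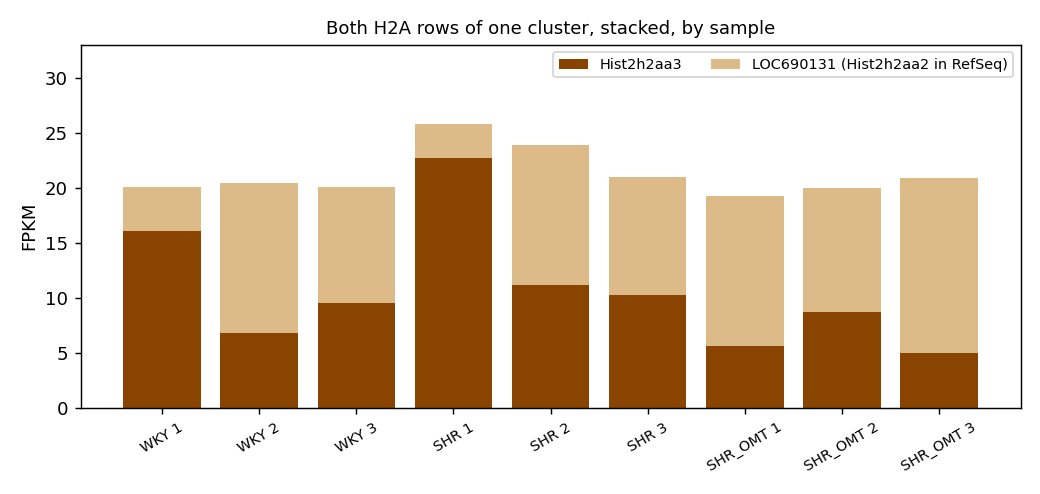
FPKM of Hist2h2aa3 (dark) and of LOC690131, named Hist2h2aa2 in RefSeq (light), stacked for each of the 9 samples on an axis from 0. The totals lie between 19.2 and 25.8 FPKM, while the dark share runs from 23.6% to 88.2%.

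Among the variants, the H2A.Z genes H2afz and H2afv were both lower in SHR. H2afz had 80.9, 81.3 and 76.6 FPKM in the WKY samples and 65.8, 59.9 and 68.3 in the SHR samples. No SHR library reached the lowest WKY library, and the change was −0.30 (SE 0.057, adjusted p = 0.00407), called in all 16 alternatives. H2afv had 48.3, 46.3 and 42.7 FPKM in the WKY samples and 32.4, 33.7 and 35.4 in the SHR samples. The change was −0.43 (SE 0.11, adjusted p = 0.0134), which missed the threshold without WKY replicate 1 (adjusted p = 0.0513). The sum of H2afz and H2afv was 119 to 129 FPKM in the WKY samples and 93.6 to 104 in the SHR samples. A further row outside the members, RGD1560813, is named H2az2l3 in RefSeq. It had 8.33, 12.2 and 11.03 FPKM in the WKY samples and 10.45, 3.68 and 10.56 in the SHR samples, which overlapped, and was not called (adjusted p = 0.321). In bulk tissue, fewer cells of a type and less RNA per cell cannot be told apart.

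The H3.3 genes were lower as well. H3f3b had 211, 185 and 180 FPKM in the WKY samples and 160, 156 and 163 in the SHR samples. The groups did not overlap, with a change of −0.26 (SE 0.061, adjusted p = 0.00983), but the call was lost with median-of-ratios scaling (adjusted p = 0.0816). LOC100361558 (H3f3a) had 450, 424 and 462 FPKM in the WKY samples and 373, 365 and 356 in the SHR samples. Its change of −0.29 (adjusted p = 0.00261) was called in all 16 alternatives. The sum of the H3f3b and H3f3a rows was 608 to 661 FPKM in the WKY samples and 519 to 532 in the SHR samples.

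H2afx, whose message can end in either a stem-loop or a poly(A) tail, had 18.8, 21.4 and 19.7 FPKM in the WKY samples and 16.7, 17.6 and 15.99 in the SHR samples. The groups stood apart, with a change of −0.24 (SE 0.060, adjusted p = 0.0144), and the call was lost with median-of-ratios scaling (adjusted p = 0.128) and quantile normalization (0.0747). H1f0 had 54.1 to 60.2 FPKM in the WKY samples and 57.4 to 61.4 in the SHR samples (adjusted p = 0.851), with a 95% interval of the change of −0.11 to 0.14. H2afy2, the second macroH2A gene, named after its values were seen, had 0.94, 1.41 and 1.34 FPKM in the WKY samples and 1.97, 1.41 and 1.97 in the SHR samples; it was not called (adjusted p = 0.0772), but was with median-of-ratios scaling (0.0491), with quantile normalization (0.0345) and without SHR replicate 2 (0.042). With median-of-ratios scaling 1 variant gene was thus called higher and 2 lower, and with quantile normalization 1 and 3. H2afy had 26.8 to 28.5 FPKM in the WKY samples and 24.9 to 26.2 in the SHR samples, apart but not called (change −0.10, adjusted p = 0.228). H2afj, an H2A variant of differentiated and ageing cells named after its values were seen, had 12.0 to 14.9 FPKM in the WKY samples, 14.3 to 19.1 in the SHR samples and 8.47 to 17.1 in SHR_OMT, which overlapped. Over all genes the main split of 1343 higher and 2872 lower became 2115 and 1702 with median-of-ratios scaling.

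The authors' deposited table gave none of the 10 variant genes a q-value under 0.05 for SHR against WKY. It had a log2 ratio of −0.194 for H2afz (q = 0.163), −0.285 for H2afv (q = 0.0743), −0.163 for H3f3b (q = 0.111) and −0.147 for H2afx (q = 0.587), all of the same sign as here and smaller in size. With median-of-ratios scaling the differences found here were −0.20 for H2afz, −0.33 for H2afv, −0.16 for H3f3b and −0.14 for H2afx, close to those ratios. Its 3 members with a q under 0.05 were Hist1h2bh, Hist2h2be and Hist1h2bk. Hist1h2bk, listed at 0 in all SHR libraries, reached the condition for testing only through WKY, so its q is no support here. LOC100361558 had a log2 ratio of −0.184 and a q of 0.0158 there.

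**Figure D3:**
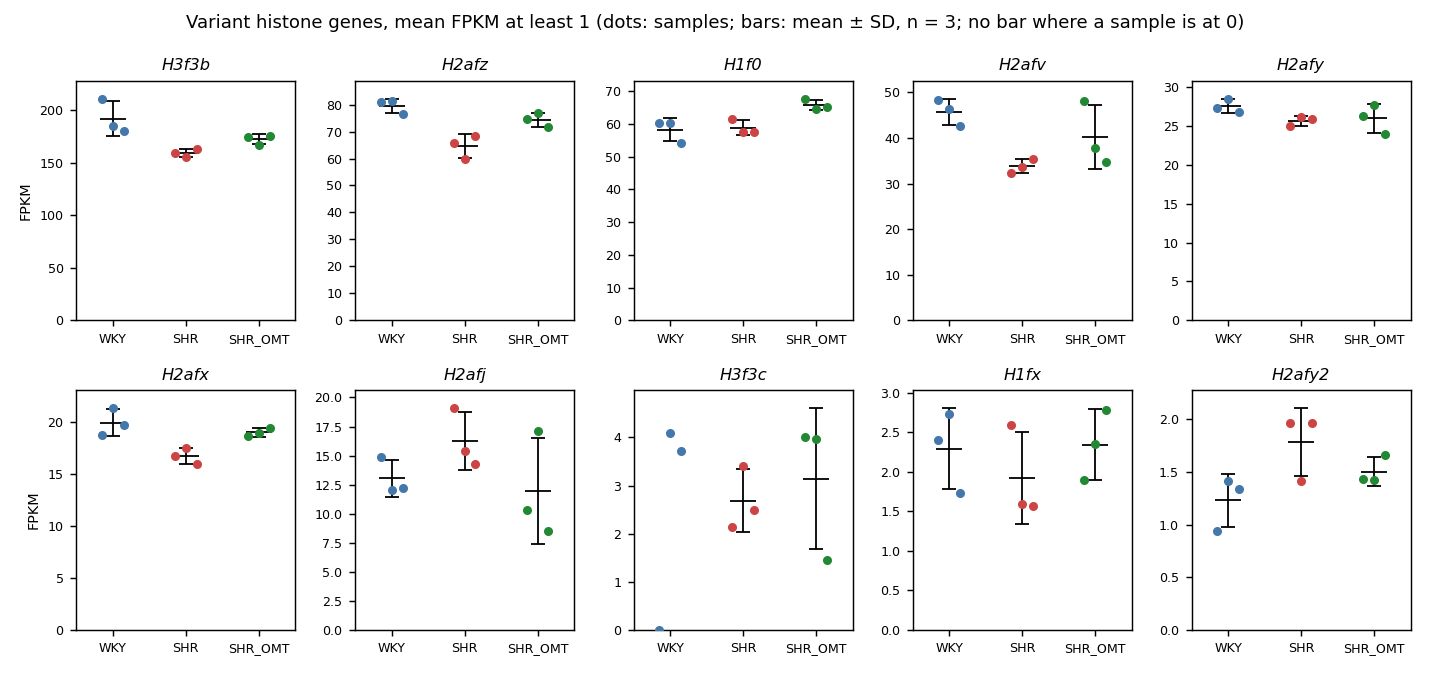
FPKM of the 10 tested variant histone genes by group; dots are samples, bars the mean and SD over 3 samples, with each vertical axis from 0 on its own scale and no bar where a sample is at 0. H3f3b, H2afz, H2afv and H2afx are lower in all SHR samples than in all WKY samples, and H1f0 is highest in SHR_OMT.

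Summed over the class, the replication-dependent genes had 296, 296 and 272 FPKM in the WKY samples and 307, 302 and 313 in the SHR samples. The variant genes had 465, 443 and 419 FPKM in the WKY samples and 387, 372 and 386 in the SHR samples. Both sums parted the untreated groups, in opposite directions, by 0.10 and −0.21 on the log2 scale of group means. The ratio of the first sum to the second was 0.637 to 0.669 in WKY and 0.795 to 0.812 in SHR. Since the members were chosen with earlier results known, no p is given for these sums. With locus-named histone rows added, the differences were 0.09 and −0.25, while under median-of-ratios scaling they became 0.20 and −0.11. Without Hist1h1c and Hist1h2bh the replication-dependent sum was 55.4 to 67.3 FPKM in the WKY samples and 47.5 to 63.0 in the SHR samples, which overlapped.

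Genes that serve histones were read beside them, where 10.8% of all genes were called higher and 23.1% lower. With median-of-ratios scaling 2115 of the 12451 tested genes were called higher and 1702 lower. Of 18 tested genes of histone message processing and transcription, 2 were lower in SHR and none higher (median change −0.07, where all genes had −0.08): E2f1, an S phase transcription factor, with a change of −0.56, and Slbp, with 16.5 ± 0.82 FPKM in the WKY samples and 14.1 ± 0.94 in the SHR samples (SD, n = 3, adjusted p = 0.0293). With median-of-ratios scaling Slbp was not called (adjusted p = 0.189), and the list had 2 higher and 1 lower. Of 26 chaperones and deposition factors 1 was higher and 10 lower (median −0.14), or 2 and 5 with that scaling. The higher one was Anp32e, which takes H2A.Z out of nucleosomes, with 56.3 ± 4.40 FPKM in the WKY samples and 85.9 ± 3.69 in the SHR samples (SD, n = 3, adjusted p = 0.0003). Lower were among others Daxx, a chaperone of H3.3 (−0.46), and Nap1l1, a chaperone of H2A and H2B (−0.26, adjusted p = 0.00535), and Mcm2, a helicase subunit that also binds H3 and H4 (−0.58). Of 24 S phase and proliferation genes 18 were lower and none higher (median −0.39), or 14 and none with that scaling, with changes of −0.36 for Pcna, −0.71 for Mcm6 and −0.58 for Tk1. Tk1 serves nucleotide synthesis, Pcna is the clamp of the replicating polymerases and Mcm6 a subunit of the replicative helicase. Mcm2 is in both lists. The summed FPKM of the S phase list was 153 to 163 in WKY and 111 to 122 in SHR, lower in SHR where the replication-dependent histone sum was higher. Without Hist1h1c and Hist1h2bh that histone sum was not higher in SHR, and the groups overlapped.

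Markers of cell types were read in the same comparison, beside 10.8% of all genes called higher and 23.1% lower. With median-of-ratios scaling 2115 of all genes were called higher and 1702 lower. Of 8 endothelial markers 6 were lower in SHR and none higher (5 and none with median-of-ratios scaling), and their summed level was 669 to 780 FPKM in the WKY samples, 498 to 546 in the SHR samples and 541 to 564 in SHR_OMT, with no marker at 0. Of 3 tested lymphocyte markers 2 were lower and none higher (none of them called with that scaling), with sums over all 8 of 7.63 to 10.8 FPKM in the WKY samples, 4.78 to 6.54 in the SHR samples and 6.05 to 9.50 in SHR_OMT. Of the 8 heart muscle markers 3 were higher and none lower, of 7 fibroblast markers 1 was lower and none higher (none called with that scaling), and none of 8 macrophage and 4 erythroid markers was called. Of 4 tested atrial markers 1 was lower and none higher: Myl7, the atrial myosin light chain, had 9.33, 8.06 and 1.49 FPKM among the WKY and 0.92, 1.29 and 1.23 among the SHR libraries (change −1.52, adjusted p = 0.0374). Sln, an atrial regulator of the calcium pump, had 10.8, 19.99 and 0.29 FPKM against 0, 3.35 and 6.48. WKY replicates 1 and 2 thus stood apart in Myl7 and Sln, but not in the other atrial markers. Nppa, at 2606 and 2097 FPKM in these replicates, was higher in SHR replicates 2 and 3 (3754 and 4450). Myl4, at 3.91 and 2.39, was higher in WKY replicate 3 (4.63) and in SHR replicates 1 and 2 (4.57 and 6.61). Bmp10, at 0.12 and 0.33, was highest in SHR replicate 2 (0.62). With WKY replicate 1 or 2 left out, H2afv lost its call without WKY replicate 1, and the other 6 histone genes kept theirs. These libraries were not left out together, so a feature that they share was not tested. The part of these cells in the lower variant histone and S phase genes was not tested.

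The second comparison, SHR_OMT against SHR, asks what differed with oxymatrine. None of the 19 tested histone genes passed in limma, where 0.241% of all genes were called (0.153% higher and 0.0883% lower). An unadjusted p under 0.05 was found for 5 of the 19, beside 12.1% of all genes, and the lowest adjusted p was 0.23, for H2afz. No alternative called a member either, and the authors' deposited table gave no member a q-value under 0.05, its lowest being 0.0664 for Hist2h2aa3. The median change was 0.05 for the replication-dependent and 0.14 for the variant genes, beside 0.04 for all genes. This comparison shares its SHR libraries with the first, so values of the 2 are given side by side only. Of all tested genes 35.5% had a negative change here, so most were higher in SHR_OMT. The share of all genes whose groups do not overlap was not taken in any comparison. Gaps between groups of uncalled genes are therefore given as values and are not read as an effect.

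H2afz had 74.5, 77.0 and 71.7 FPKM in SHR_OMT, above the 59.9 to 68.3 of SHR and around the lower edge of WKY. The difference from SHR was 0.20 with a 95% interval of 0.07 to 0.33. H2afx, at 18.7, 18.9 and 19.5 FPKM, and H1f0, at 67.6, 64.7 and 65.1, likewise did not overlap with SHR, with differences of 0.17 (adjusted p = 0.307) and 0.16 (adjusted p = 0.302). H2afv was less even, with 48.2, 37.9 and 34.7 FPKM, and only replicates 1 and 2 lay above all SHR libraries. H3f3b had 175, 167 and 175 FPKM, all above SHR, and LOC100361558 353, 376 and 381, which overlapped with SHR. Among the genes that serve histones, none of the 18, the 26 or the 24 tested was called in this comparison, nor was any of the 8 endothelial markers. The sum of H2afz and H2afv was 106 to 123 FPKM in SHR_OMT, against 93.6 to 104 in SHR.

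Of the replication-dependent genes, Hist2h2be had 4.23, 4.56 and 4.91 FPKM in SHR_OMT, above the highest SHR library at 4.22 by a narrow margin (difference 0.33, adjusted p = 0.29). Hist2h2aa3 was lower in every SHR_OMT library than in every SHR library (difference −1.03, 95% interval −1.79 to −0.26, adjusted p = 0.296). Its pair LOC690131 differed by 0.74 the other way (adjusted p = 0.593), and the pair's total, 19.23 to 20.89 FPKM in SHR_OMT and 20.95 to 25.75 in SHR, stood apart by a narrow margin. The class sum of 298, 286 and 321 FPKM overlapped with SHR, and the variant sum of 428, 418 and 405 lay above it in every library.

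**Figure D4:**
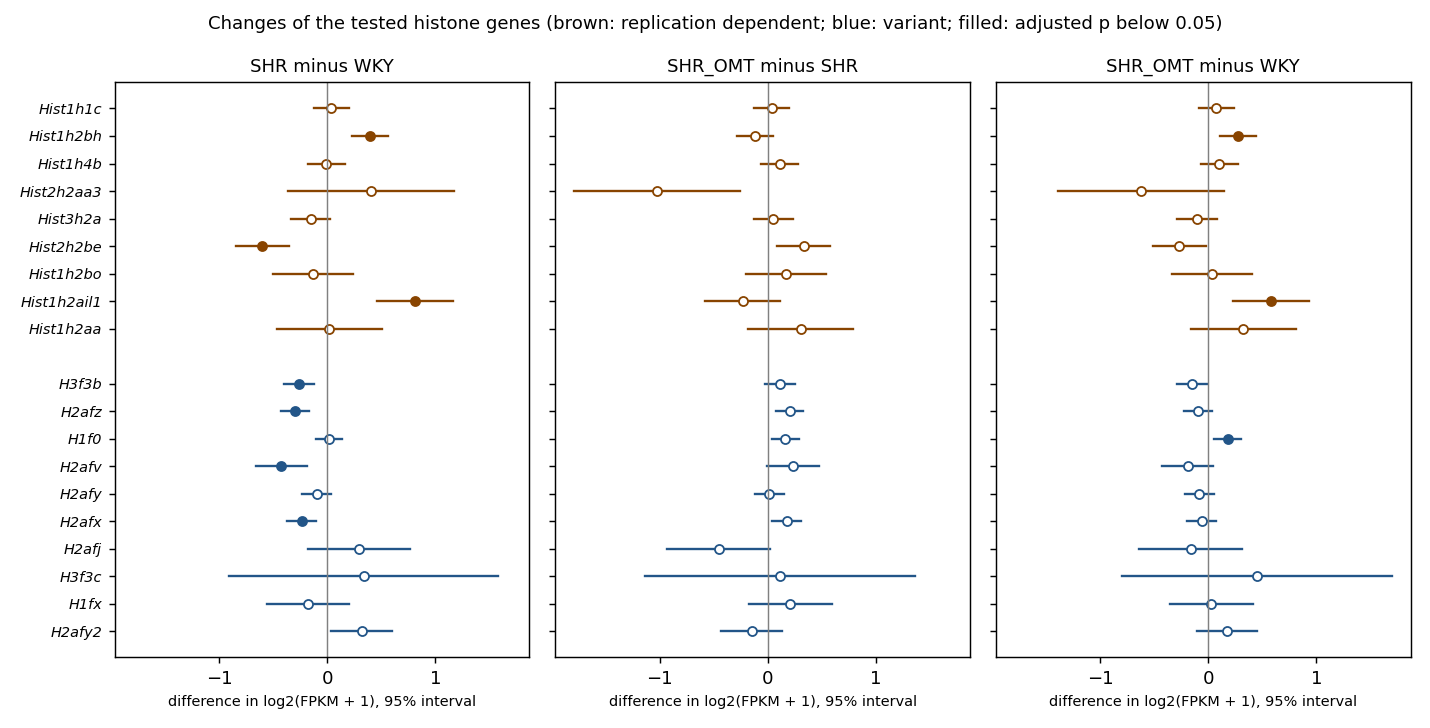
Difference in log2(FPKM + 1) with its 95% interval for the 19 tested histone genes in the 3 comparisons, from limma; brown is replication dependent, blue variant, and a filled point has an adjusted p below 0.05. Hist1h2bk, listed at 0 in SHR, is left out; no gene is filled for SHR_OMT minus SHR.

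The third comparison, SHR_OMT against WKY, gave 3 calls among the 19, 2 replication dependent and 1 variant, all higher, where 24.9% of all genes were called (10.2% higher and 14.6% lower). It shares libraries with both others. Hist1h2bh, at 84.0, 76.4 and 83.9 FPKM in SHR_OMT, was higher than in every WKY library (change 0.27, SE 0.074, adjusted p = 0.0248). That call was lost without WKY replicate 1 (0.0896) or 3 (0.0512) or without SHR_OMT replicate 1 (0.0811) or 3 (0.0726). Hist1h2ail1, at 3.13, 1.96 and 2.73 FPKM, was higher by 0.58 (adjusted p = 0.0246), lost without WKY replicate 2 (0.0687) or 3 (0.0753) or SHR_OMT replicate 1 (0.0871) or 3 (0.0684). Hist2h2be, called lower in SHR, was not called here (change −0.27, adjusted p = 0.0976), though it was without SHR replicate 3 (0.0414) and with only both groups fitted (0.0478).

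The 1 variant gene called was H1f0, which was higher by 0.18 (SE 0.055, adjusted p = 0.042), with 67.6, 64.7 and 65.1 FPKM against 60.2, 60.2 and 54.1 in WKY. The groups did not overlap, but 9 of the 16 alternatives lost the call. Over all 16 the adjusted p ran from 0.02 to 0.128. It was 0.0613 without WKY replicate 1, 0.128 without WKY replicate 3, 0.0523 and 0.0543 without SHR replicate 2 or 3, and 0.126, 0.0702 and 0.08 without SHR_OMT replicate 1, 2 or 3. The 4 variant genes called lower in SHR were not called against WKY in SHR_OMT: H2afz differed by −0.10 (95% interval −0.22 to 0.03), H2afv by −0.19 (−0.43 to 0.04), H3f3b by −0.15 (−0.29 to −0.01) and H2afx by −0.06 (−0.20 to 0.07). H2afv was called lower without SHR_OMT replicate 1 (change −0.33, adjusted p = 0.0192), while without SHR_OMT replicate 3 its difference was −0.10. The difference of H3f3b was −0.08 without WKY replicate 1, and that of H2afx −0.02 without WKY replicate 2. LOC100361558 remained lower than in WKY by 0.27 on the log2 scale (adjusted p = 0.00526). Anp32e was higher than in WKY here too, at 79.5 ± 5.29 FPKM (SD, n = 3, adjusted p = 0.00127). Beside the 14.6% of all genes called lower, 5 of the 26 chaperones and deposition factors and 5 of the 24 S phase genes were lower, and 7 of the 8 endothelial markers were lower. The ratio of replication-dependent to variant sum was 0.696, 0.684 and 0.793 in SHR_OMT, with replicate 3 near the SHR values and the others nearer to WKY.

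**Figure D5:**
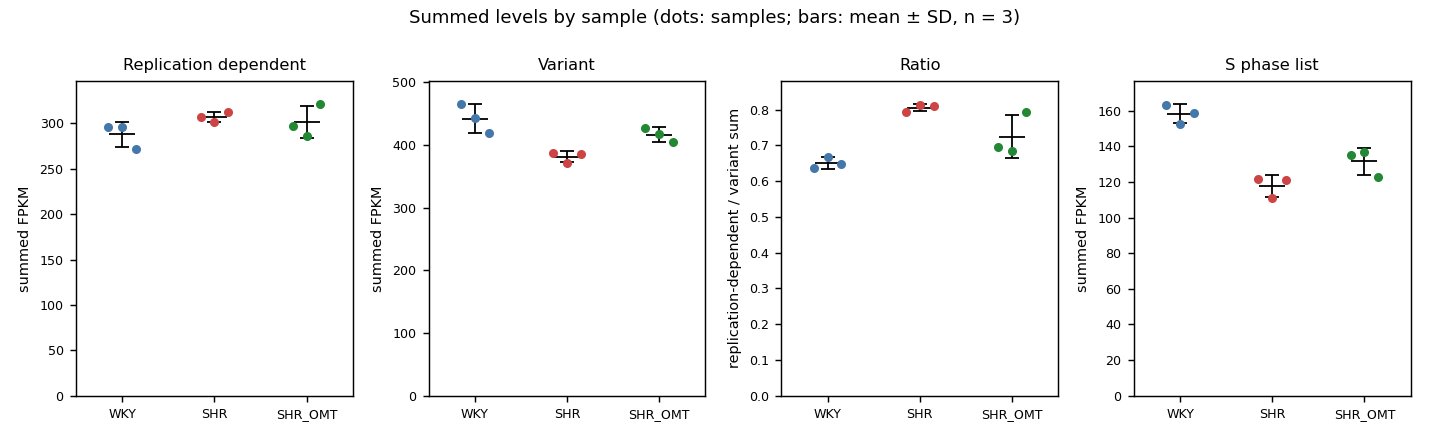
Summed FPKM of the 22 replication-dependent and the 10 variant histone genes, their ratio, and the summed FPKM of 26 S phase and proliferation genes, by group; dots are samples, bars the mean and SD over 3 samples, axes start at 0. The variant and S phase sums are lowest in SHR, and the ratio is highest there at 0.795 to 0.812.

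The 12 replication-dependent genes with a mean below 1 FPKM did not meet the condition for testing and are given as values. Their means ran from 0.183 to 0.82 FPKM, 10 of them were listed at 0 in at least 1 library, and none exceeded 2.65 FPKM. That highest value was Hist1h2ao, an H2A gene, in SHR_OMT replicate 3, where its fellow replicates had 0.61 and 0. The summed level of the 12 was 3.41, 5.40 and 4.61 FPKM in the WKY samples, 2.84, 3.54 and 4.01 in the SHR samples and 3.71, 5.07 and 8.34 in SHR_OMT. The groups overlapped, and SHR_OMT replicate 3 stood above the rest. Chosen after their values were seen, Hist1h2ai, an H2A gene, was listed at 0 in all WKY libraries and reached at most 0.81 FPKM elsewhere, and Hist2h4a, an H4 gene, was listed at 0 in all SHR_OMT libraries and reached at most 0.97. The linker histone genes Hist1h1a and Hist1h1b stayed at or below 0.56 and 0.52 FPKM, and the testis linker gene Hist1h1t at or below 0.57.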

How the data were processed

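Total RNA of 9 left ventricle samples was sequenced on a BGISEQ-500 after a KAPA RNA HyperPrep library step, per the labels' protocols. Rnor_6.0, DESeq2 1.4.5, RSEM 1.3.1 and Bowtie2 are listed in the submitters' processing notes, without order or settings. The deposited table gives FPKM per gene and sample, per the file headers, and holds log2 ratios with q-values of the authors, for SHR over WKY and SHR_OMT over SHR, which are named as theirs. Of 22864 rows 3570 had no values. Depth is unknown: low values did not step by whole reads (34.3% of 1799 ratios within 0.1 of whole; 20% under even spacing), so precision rests on the spread between samples.

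Genes with a mean of at least 1 FPKM were tested with limma 3.58.1 (R 4.3.3) on log2(FPKM + 1), in 1 fit over the 3 groups with a variance trend; tests were two-sided, Benjamini-Hochberg adjusted over all genes at 0.05. The fit was tested on simulated data. Alternatives were a pseudocount of 0.1, no filter, a minimum mean of 5, quantile normalization, median-of-ratios scaling, fits of only both groups compared, the replicate number as a block and each sample left out. Named genes were the called members, the 4 most abundant of each class and those listed at 0 in all samples of 1 group and at 1 FPKM or more in all of another; of the other lists, up to 4 called genes by smallest p. Other genes were named after their values were seen. Members and lists were chosen with earlier results of these data known. Gene IDs of 31 of the 32 members were found in RefSeq's gene table for GRCr8, which also gave names to 26 histone rows listed under other symbols; 15 of these were added to the replication-dependent and 11 to the variant sums. FPKM are no counts, so count models were not used. A gene that the naming rule would give is not reported here.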

Additional observations from a re-analysis of the deposited data

How the results depend on the processing

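Unlike above, counts of replication-dependent calls here include Hist1h2bk, which reached the condition for testing only through WKY. Its call is therefore no support for the stability of these counts. In the main fit, leaving it out gave 3, 0 and 2 for SHR against WKY, SHR_OMT against SHR and SHR_OMT against WKY. In the comparison of SHR with WKY, the number of replication-dependent genes called was 4 in every setting but the filter at a mean of 5 FPKM, which leaves fewer genes to test and gave 1; the same filter gave 1 instead of 3 for SHR_OMT against WKY. With each sample left out these counts were 4 to 4 and 1 to 4, and for the variant genes 3 to 5 and 0 to 1. For SHR_OMT against SHR they were 0 to 0 in both classes. The variant call for SHR_OMT against WKY, 1 in all, was 0 with only both groups fitted and 0 with the replicate block. Over all genes the calls for SHR_OMT against SHR, 30 in all, were 12 without a filter, 14 with the replicate block, 19 with only both groups fitted and 6 to 33 with a sample left out; for SHR against WKY the last range was 2882 to 4218 and for SHR_OMT against WKY 1893 to 3043. The log2 difference in the replication-dependent sum for SHR against WKY (0.10) was 0.20 with median-of-ratios scaling, 0.17 without Hist1h1c and 0.06 to 0.12 with a sample left out, and for SHR_OMT against SHR (−0.03) it was −0.11 without Hist1h1c, −0.077 with median-of-ratios scaling and −0.08 to 0.01 with a sample left out, and for SHR_OMT against WKY 0.02 to 0.10. In the variant sum it was −0.11 for SHR against WKY with median-of-ratios scaling and −0.25 to −0.17 with a sample left out. For SHR_OMT against SHR (0.13) it was 0.077 with that scaling, 0.080 with locus-named rows, an alternative chosen after seeing the data, and 0.11 to 0.15 with a sample left out. For SHR_OMT against WKY (−0.09) it was −0.17 with locus-named rows, −0.035 with median-of-ratios scaling, −0.034 without H3f3b and −0.12 to −0.05 with a sample left out. With median-of-ratios scaling, also chosen here after seeing the data, the calls for SHR against WKY were 7 instead of 11 chaperones, 0 instead of 1 fibroblast marker and 0 instead of 2 lymphocyte markers. Causes were not tested. No pairing by replicate number was seen. The deviations of same-numbered samples correlated at −0.109 to 0.028 over 9 pairs, and those of differently numbered samples of different groups at −0.076 to 0.072. With 3 samples per group these values cannot show whether same-numbered samples were handled together. The replicate block changed no other call than H1f0 among the named histone genes. No value of a named gene under these alternatives turned its direction while called. Among the values of the named genes other than Hist1h2bk under the alternatives, 498 kept their side of the threshold, 21 lost a call and 3 gained one. Without counts, no counting interval can be given for genes near 0.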
